A study of Mus musculus with 62 samples.

Results

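The treatment of BBN963 cells with rosiglitazone alone was sampled at 72 h in 5 rosiglitazone libraries and 5 DMSO libraries, which were picked by their labels from the 62 libraries of the series, and all 36144 genes of the deposited table that holds both groups were considered. BBN963 is a mouse line labelled as basal bladder cancer urothelial cells, with the genotype C57bl/6 WT shared by all groups. The tested cells received Rosiglitazone and their controls received DMSO, the solvent, for 72 h. From the same cell experiment, 5 libraries of Rosiglitazone with Trametinib and 5 of Trametinib, also at 72 h, are used where they are named. The dose is not given in the sources used here, nor is whether replicates were separate cultures, so p-values measure only the spread between these libraries. All values come from this single line.

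Rosiglitazone is a thiazolidinedione that binds and activates PPARγ, a nuclear receptor. PPARγ pairs with a retinoid X receptor on DNA at direct repeats of the motif AGGTCA, and its known targets store, carry and burn fatty acids. In the bladder it is known as a factor of luminal urothelial cells, where it works beside FOXA1 and GATA3, while basal and squamous cells carry keratins such as KRT5, KRT14 and KRT6.

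The promoters of 3 genes of fatty acid metabolism that were higher with the drug are printed because PPARγ is known to act through such repeats. Each runs from 250 bases before the start site to 50 bases after it, 5′ to 3′ on the gene's own strand, from RefSeq on GRCm38.p6, with AGGTCA or its complement TGACCT in capitals. They lie at chr9:119157044-119157343 (minus strand), chr19:3323051-3323350 (plus strand) and chr4:86670010-86670309 (minus strand).
Acaa1b: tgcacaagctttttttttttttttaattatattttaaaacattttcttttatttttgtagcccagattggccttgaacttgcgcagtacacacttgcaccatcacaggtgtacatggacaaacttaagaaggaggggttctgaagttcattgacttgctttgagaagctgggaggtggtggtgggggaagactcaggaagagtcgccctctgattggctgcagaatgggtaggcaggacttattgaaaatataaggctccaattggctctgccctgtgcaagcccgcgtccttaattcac
Cpt1a: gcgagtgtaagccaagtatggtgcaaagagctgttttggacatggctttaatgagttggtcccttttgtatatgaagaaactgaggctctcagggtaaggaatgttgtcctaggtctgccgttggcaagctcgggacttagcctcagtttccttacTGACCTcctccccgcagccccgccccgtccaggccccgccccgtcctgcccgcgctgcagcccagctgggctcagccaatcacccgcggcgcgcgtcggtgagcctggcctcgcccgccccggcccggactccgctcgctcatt
Plin2: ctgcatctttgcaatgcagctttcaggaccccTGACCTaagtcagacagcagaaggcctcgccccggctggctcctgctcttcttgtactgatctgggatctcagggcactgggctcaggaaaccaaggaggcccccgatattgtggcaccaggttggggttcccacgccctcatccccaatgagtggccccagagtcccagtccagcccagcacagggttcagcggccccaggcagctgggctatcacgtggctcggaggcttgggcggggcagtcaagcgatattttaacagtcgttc
The Cpt1a and Plin2 windows each held 1 such motif on the opposite strand, starting at position -94 and -218 from the start site, and the Acaa1b window held none. On either strand, AGGTCA occurred in 16.3% of all 32851 promoters of this length. It occurred for 11 of the 54 genes called below that had a promoter in the table, 5 of them among the 20 that were higher. A gene counted here if any of its promoters held the motif, while 16.3% is a share of single promoters, so the rates are not directly comparable. The full repeat AGGTCANAGGTCA occurred in 0.0396% of all promoters and in none of those 54 genes, which says only that these letters are not in these windows.

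Values are read counts that the authors had normalised, and the libraries stood for an estimated 35 to 42.6 M reads with rosiglitazone and 38.7 to 47.9 M reads with DMSO. One DMSO library, replicate 4, stood apart. It lay more than 0.5 log2 units from the mean of the other libraries in 347 of the 11522 genes with at least 50 counts in every library, against 64 to 94 genes in each rosiglitazone library and 68 to 106 in each other DMSO library. Rosiglitazone replicate 3 deviated from its own group in the same genes (r = 0.52 across genes, which are not independent). No pair of the 10 libraries shared more than 0.009% of its values. The cells carried the epithelial markers, whose summed level was 162100 to 182700 with rosiglitazone and 159600 to 183000 with DMSO. Of the markers of a basal cell, Krt14 was measured, Krt5 was at most 5.17 with rosiglitazone and 6.85 with DMSO, and Trp63 was at most 12.2 and 13.3. Low levels were not the rule for basal genes: 2 of the 20 in the basal list stayed under 10 counts in all 10 libraries. That list summed to 84820 to 90720 with rosiglitazone and 82570 to 93820 with DMSO. Of all 36026 genes with a usable entry, 20345 stayed under 10 counts in all 10 libraries. A count of markers under 10 therefore does not show that a cell type was absent. Of markers of other cells, 6 of 10 fibroblast, 5 of 8 adipocyte, 2 of 8 endothelial and 3 of 12 leukocyte genes stayed under 10 counts in all 10 libraries, and the macrophage marker Adgre1 was at 0 in all. Their summed levels were 392.1 to 588.0, 655.6 to 725.0, 163.2 to 201.3 and 4305 to 5049 with rosiglitazone and 363.2 to 499.2, 520.5 to 750.5, 187.9 to 230.6 and 4247 to 4891 with DMSO, so each pair of ranges overlapped. Most of the leukocyte sum was Cd14, which averaged 3920 and 3950, and most of the adipocyte sum was Lipe, at 662.8 and 640.5.

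**Figure D1:**
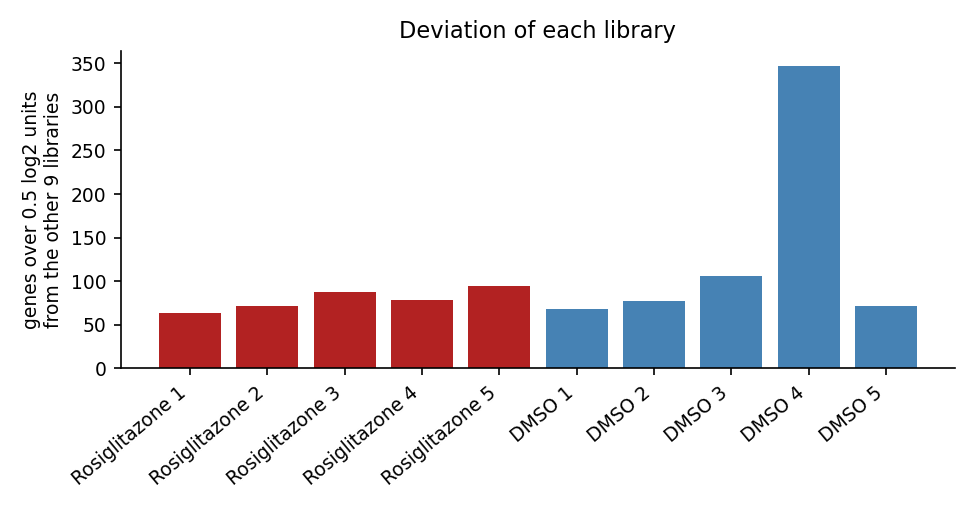
Number of genes, of 11522, in which each library (x axis, rosiglitazone replicates 1 to 5 and then DMSO replicates 1 to 5) lay more than 0.5 log2 units from the mean of the other 9 (y axis). DMSO replicate 4 reached 347 and no other library passed 106.

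Across all 10 libraries no gene passed an adjusted p of 0.05 in limma (0 of 14218 tested, 0.0%), although 940 genes (6.61%) had an unadjusted p under 0.05 and the lowest adjusted p, shared by Acaa1b, Cpt1a and Timp3, was 0.0649. The authors' deposited table marks 61 of 15132 genes with a DESeq2 adjusted p under 0.05 (0.403%), 25 of them with a positive change. When limma gave each library a weight from its own spread, DMSO replicate 4 received 0.191 and 86 genes were called. Without DMSO replicate 4, 71 of 14362 genes were called (0.494%), of which 26 were higher (0.181%) and 45 were lower (0.313%), and 2069 (14.4%) had an unadjusted p under 0.05. With 1 more library left out this number ran from 11 to 88, and 7 of the 71 genes were called in every such fit. Below, a gene is said to have risen or fallen only if it was called in this fit of 9 libraries or, where trametinib is named, in that comparison, and its counts are given for all 10. A log2 fold change of rosiglitazone over DMSO that stands alone, list medians included, is from the fit of 9 libraries. With 0.494% of all genes called, a short list would hold few calls or none at that share. A list count of 0 or 1 is therefore only a description.

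The called changes were small. Their median size was 0.30 log2 units, 17 were of at least 0.5 and 3 of at least 1 (Olfr137, Sema3d and Erich2, the last named after its values were seen). Over all 10 libraries the rosiglitazone and DMSO groups did not overlap for 35 of the 71 genes (14 higher and 21 lower). Among all 14218 genes tested this held for 269 (1.89%, with 0.879% higher and 1.01% lower). The 71 genes were called on 9 of these 10 libraries, so their larger share was largely fixed by that selection. The authors' deposited table, which holds the same libraries, also marks 34 of these 35. For the other 36 the groups overlapped, and in each of these DMSO replicate 4 was shifted toward the rosiglitazone libraries. That side was fixed by the selection: these genes were separate over the 9 libraries, so only replicate 4 could make the groups overlap. The authors' deposited table marks 35 of the 71 genes in all, which is 57.4% of its own calls and 49.3% of the 71.

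The receptors and coregulators through which the drug acts did not pass the test in either direction (0 of 17 tested, beside 0.494% of all genes). Pparg, the receptor itself, had 295.1, 306.7, 343.1, 289.1 and 231.4 normalised counts in the rosiglitazone libraries and 309.1, 288.5, 371.6, 314.4 and 336.6 in the DMSO libraries. The groups overlapped, and the log2 fold change was -0.15 ± 0.10 (SE) over 10 libraries and -0.16 ± 0.11 without DMSO replicate 4, with adjusted p between 0.387 and 0.998 over all settings tried. Ppard, the family member found in most tissues, averaged 2319 with rosiglitazone and 2455 with DMSO, and Rxra, the partner receptor, 1978 and 1926. Ppara, the form best known from liver, was low, with at most 23.9 counts in a rosiglitazone library and 18.5 in a DMSO library. The median log2 fold change of the list was -0.01 over 10 libraries and -0.08 without DMSO replicate 4, in which the list lay 0.29 log2 units below the other DMSO libraries.

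Among PPAR target genes of lipid droplets, uptake and storage 2 of 29 rose and none fell, beside 0.181% and 0.313% of all genes. Plin2 encodes the protein that coats lipid droplets in many cell types. Its counts were 5538, 5620, 6339, 5984 and 5764 with rosiglitazone and 4984, 5052, 5114, 5167 and 4883 with DMSO. All rosiglitazone libraries lay above all DMSO libraries, DMSO replicate 4 included, and the log2 fold change was 0.21 ± 0.04 (adjusted p 0.114) over 10 libraries and 0.22 ± 0.04 (adjusted p 0.0289) without that library. Hilpda, a droplet protein that restrains lipolysis, had 1747, 1605, 2104, 1670 and 1599 counts with rosiglitazone and 1382, 1424, 1322, 1521 and 1346 with DMSO. These groups did not overlap either, with log2 fold changes of 0.31 ± 0.07 (adjusted p 0.257) and 0.34 ± 0.07 (adjusted p 0.049).

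Angptl4, a secreted inhibitor of lipoprotein lipase and a classical PPAR target (chromosome 17, 33773750 to 33781830, minus strand, GRCm38), was also separated without being called. Its counts were 422.9, 491.0, 452.8, 343.4 and 362.7 with rosiglitazone and 253.2, 320.0, 320.2, 323.6 and 292.3 with DMSO. The lowest rosiglitazone library was above the highest DMSO library. The log2 fold change was 0.45 ± 0.11 (adjusted p 0.27) over 10 libraries and 0.48 ± 0.11 (adjusted p 0.0779) without DMSO replicate 4, and it ranged from 0.39 to 0.51 as single libraries were left out of the 10. The authors' deposited table gives it a log2 fold change of 0.46 and an adjusted p of 0.0169. Several genes known as PPARγ targets in fat cells were barely expressed here: Fabp4, a fatty acid carrier, averaged 11 and 15 counts with rosiglitazone and DMSO, Pdk4, an inhibitor of pyruvate dehydrogenase, 18.2 and 20.6, and Cd36, a fatty acid transporter, 6.0 and 4.1. Fabp4 and Pdk4 did not pass the test, and Cd36 was below the filter. The median log2 fold change of the 29 tested was 0.07, against -0.001 over all genes.

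The mitochondrial fatty acid oxidation list held the largest number of higher genes, 4 of 27 tested, with none lower. Over all genes 0.181% were higher and 0.313% lower. Cpt1a makes acylcarnitine at the outer mitochondrial membrane and is the rate-limiting step of fatty acid entry (chromosome 19, 3322334 to 3385733, plus strand). It had 3850, 4048, 3769, 3869 and 3971 counts with rosiglitazone and 3045, 3270, 3333, 2911 and 3247 with DMSO. Every rosiglitazone library exceeded every DMSO library, and DMSO replicate 4 was the lowest of all. The rise was 1.24-fold over 10 libraries (log2 0.31 ± 0.05, adjusted p 0.0649) and 1.21-fold without DMSO replicate 4 (log2 0.28 ± 0.04, adjusted p 0.00884). Cpt1a was 1 of 7 genes that remained called whichever of the other 9 libraries was also left out.

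Acadl, the long-chain acyl-CoA dehydrogenase of the first step of β-oxidation, had 3336, 3337, 3551, 3471 and 3400 counts with rosiglitazone and 2835, 2955, 2958, 3027 and 2925 with DMSO. The groups did not overlap, and its log2 fold change was 0.22 ± 0.04 (adjusted p 0.0954) over 10 libraries and 0.23 ± 0.03 (adjusted p 0.0143) without DMSO replicate 4. Acaa2, the thiolase of the last step, had 1726, 1725, 1972, 1816 and 1835 counts with rosiglitazone and 1509, 1482, 1537, 1944 and 1580 with DMSO. Here DMSO replicate 4 lay inside the rosiglitazone range, so that the log2 fold change of 0.25 ± 0.05 (adjusted p 0.033) without it was 0.18 ± 0.07 (adjusted p 0.678) with it. Etfa, a subunit of the flavoprotein that takes electrons from these dehydrogenases, showed the same: 5618 to 6045 counts with rosiglitazone against 5059 to 5873 with DMSO, the highest being replicate 4. Of the 27 genes 22 were positive (81.5%, against 49.7% of all genes), with a median log2 fold change of 0.08. With DMSO replicate 4 included, 21 were positive and the median was 0.065. In that library the list lay 0.125 log2 units above the other DMSO libraries, which is more than the median change. Without being called, Cpt2, which releases the acyl group inside the mitochondrion, averaged 1120 counts with rosiglitazone and 988.2 with DMSO (log2 0.17, adjusted p 0.246).

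The steepest rise among the genes of fatty acid metabolism was that of Acaa1b, a peroxisomal 3-ketoacyl-CoA thiolase (chromosome 9, 119148023 to 119157093, minus strand). Its counts were 93.0, 102.7, 112.0, 77.6 and 91.8 with rosiglitazone and 58.2, 47.3, 46.0, 46.7 and 48.5 with DMSO. The groups were well apart and DMSO replicate 4 lay among the other DMSO libraries. The mean was 95.4 ± 12.9 with rosiglitazone and 49.4 ± 5.05 with DMSO (SD, n = 5 each), 1.91-fold over 10 libraries (log2 0.93 ± 0.13, adjusted p 0.0649) and 1.88-fold without DMSO replicate 4 (log2 0.91 ± 0.14, adjusted p 0.02). As single libraries were left out of the 10 it ranged from 0.87 to 1.00. Acaa1b shares 40% of its 31-base words with its near copy Acaa1a, and the counting splits such reads between the copies. Acaa1a itself averaged 3915 with rosiglitazone and 3824 with DMSO, and it did not pass the test (log2 0.10, adjusted p 0.254, without DMSO replicate 4). No other of the 29 peroxisomal genes tested was called.

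**Figure D2:**
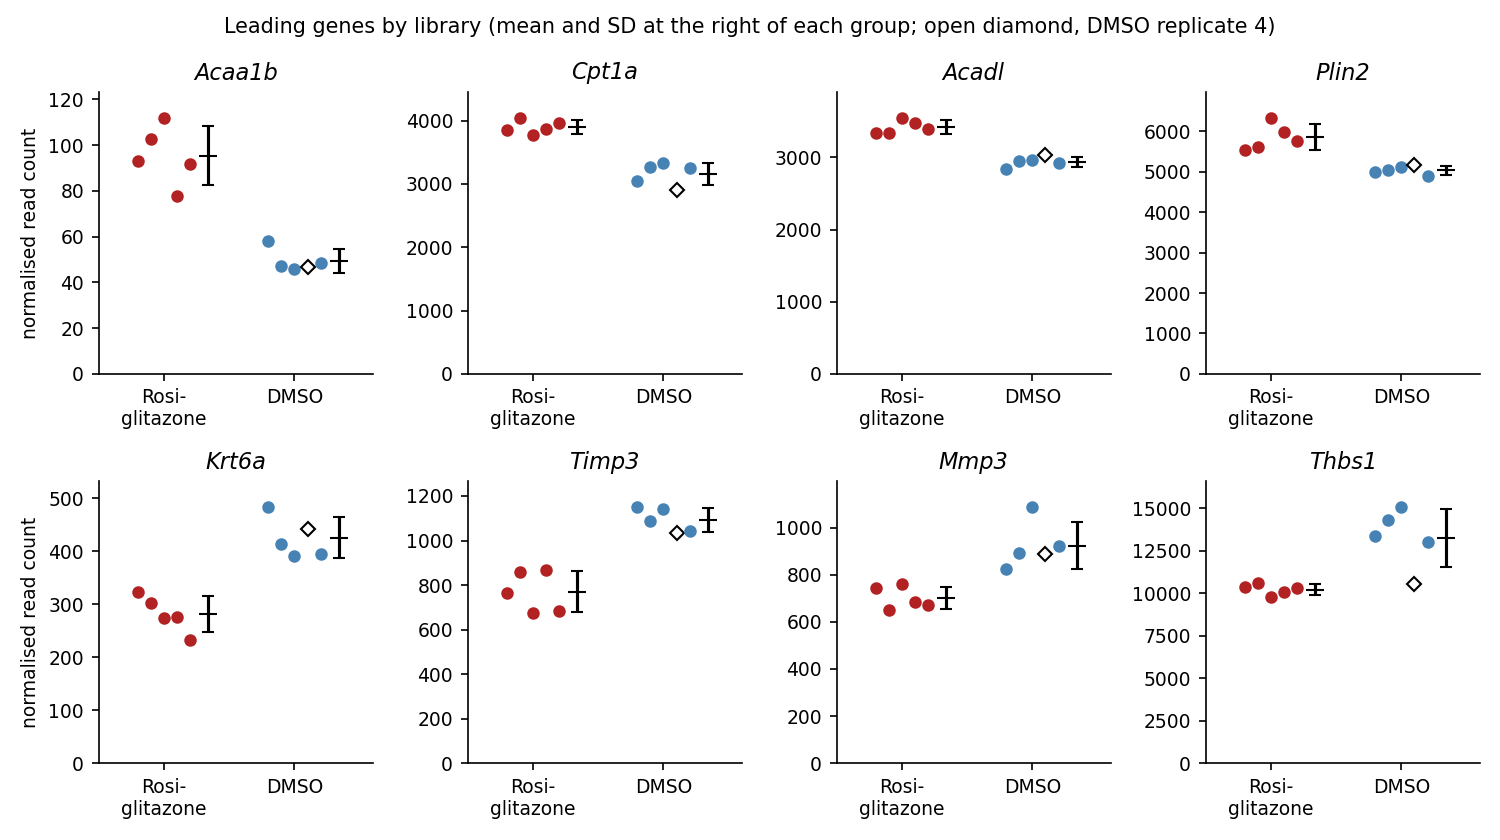
Normalised read counts (y axis, from 0) of 8 genes in the 5 rosiglitazone libraries (red, left) and the 5 DMSO libraries (blue, right), with the mean and SD beside the points and DMSO replicate 4 as an open diamond. Acaa1b, Cpt1a, Acadl and Plin2 were higher in every rosiglitazone library, and Krt6a, Timp3 and Mmp3 lower; for Thbs1 the diamond, at 10560, falls within the rosiglitazone range.

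None of the 19 genes of fatty acid synthesis and desaturation was called, and their median log2 fold change was 0.04. Aacs, which activates acetoacetate for lipid synthesis and stands in none of the lists, fell to 3058 to 3355 counts with rosiglitazone, against 3603 to 3728 with DMSO (log2 -0.19 ± 0.04, adjusted p 0.0358); it was named after its values were seen. No cholesterol gene passed the test either (0 of 22). Only 1 of the 22 was positive (4.55%, against 49.7% of all genes), with a median of -0.08, and the same count and a median of -0.07 held with DMSO replicate 4, in which the list lay within 0.01 log2 units of the other DMSO libraries. Hmgcs1, an early enzyme of the pathway, averaged 10660 with rosiglitazone and 11290 with DMSO (log2 -0.10, adjusted p 0.295). Genes of 1 pathway move together between libraries, so such a count of signs is a description.

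No luminal gene was called (0 of 24 tested, beside 0.494% of all genes). Foxa1 had 3556, 3527, 3528, 3448 and 3619 counts with rosiglitazone and 3539, 3577, 3791, 3307 and 3604 with DMSO. Gata3 averaged 1708 and 1758. The groups overlapped for both of these luminal regulators, with log2 fold changes of -0.01 ± 0.04 (adjusted p 0.999) and -0.04 ± 0.06 (adjusted p 0.984) over 10 libraries, and of -0.04 ± 0.03 (adjusted p 0.66) and -0.02 ± 0.06 (adjusted p 0.934) without DMSO replicate 4. The uroplakins, which build the plaques of the bladder surface, were low in both groups: Upk2 averaged 26.7 with rosiglitazone and 31.1 with DMSO, and Upk1b, Upk3a and Krt20, the keratin of surface cells, were below the filter.

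Of the squamous and cornified envelope genes 1 of 16 fell (0.313% of all genes did), Krt6a, a keratin of stressed and squamous epithelium (chromosome 15, 101689910 to 101694307, minus strand). It had 322.6, 301.7, 274.4, 275.3 and 233.1 counts with rosiglitazone and 483.9, 414.5, 392, 442.8 and 394.9 with DMSO. The groups did not overlap. The level with rosiglitazone was 0.66 of that with DMSO over 10 libraries (log2 -0.60 ± 0.09, adjusted p 0.0681) and 0.67 of it without DMSO replicate 4 (log2 -0.58 ± 0.10, adjusted p 0.023). Krt6a shares 45.9% of its 31-base words with Krt6b, which had 0 counts in every rosiglitazone library and at most 1.02 in a DMSO library. Krt14, the basal keratin, had 1463, 1386, 1617, 1400 and 1330 counts with rosiglitazone and 1885, 1680, 1620, 2162 and 1659 with DMSO. The groups were separate by a narrow margin, and the log2 fold change of -0.32 ± 0.08 (adjusted p 0.341) over 10 libraries was -0.25 ± 0.06 (adjusted p 0.0999) without DMSO replicate 4, the highest DMSO library. The authors' deposited table gives Krt14 an adjusted p of 0.0418. Krt17 averaged 214.3 with rosiglitazone and 227.8 with DMSO, and Krt16 62.5 and 71.1, neither of them called.

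Of the basal list 1 of 18 fell (0.313% of all genes did), Notch3, a receptor of the Notch pathway, at 269.2 to 298.2 counts with rosiglitazone. The DMSO libraries had 269.8 to 439.8, the lowest of them replicate 4, so the groups overlapped. Its log2 fold change was -0.42 ± 0.08 (adjusted p 0.0381) without that library and -0.32 ± 0.11 (adjusted p 0.583) with it. Pkp1, a desmosomal plaque protein of epithelia, fell with little spread: 7385 to 7455 counts with rosiglitazone and 7864 to 8565 with DMSO (log2 -0.19 ± 0.03, adjusted p 0.0107, without DMSO replicate 4).

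In the matrix, Timp, Mmp and plasminogen list 3 of 31 genes fell and 1 rose, beside 0.313% and 0.181% of all genes. Timp3, a matrix-bound inhibitor of metalloproteinases (chromosome 10, 86300372 to 86349506, plus strand), had 765.0, 858.3, 673.0, 869.6 and 684.9 counts with rosiglitazone and 1151, 1089, 1143, 1033 and 1044 with DMSO. No rosiglitazone library reached a DMSO library. The log2 fold change was -0.51 ± 0.08 (adjusted p 0.0649) over 10 libraries and -0.53 ± 0.08 (adjusted p 0.0116) without DMSO replicate 4, which put the level with rosiglitazone at 0.70 and 0.69 of that with DMSO. Mmp3, the metalloproteinase stromelysin 1 (chromosome 9, 7445822 to 7455975, plus strand), had 743.2, 652.2, 760.5, 685.1 and 671.9 counts with rosiglitazone and 825.1, 892.5, 1088, 888.1 and 921.9 with DMSO. It too was separate, with log2 fold changes of -0.39 ± 0.07 (adjusted p 0.0989) and -0.40 ± 0.08 (adjusted p 0.033).

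Thbs1, the matrix protein thrombospondin 1, depended on the library left out. Its counts were 10380, 10590, 9763, 10050 and 10310 with rosiglitazone and 13370, 14310, 15090, 10560 and 13050 with DMSO. The rosiglitazone libraries were tight, 4 DMSO libraries were well above them, and DMSO replicate 4 was among them. The log2 fold change was -0.37 ± 0.08 (adjusted p 0.141) with that library and -0.45 ± 0.04 (adjusted p 0.000217) without it. Outside the list, Grem1, a secreted BMP antagonist, fell to 96.5 to 146.3 counts with rosiglitazone, against 153.5 to 209.4 with DMSO (log2 -0.66 ± 0.12, adjusted p 0.0325, without DMSO replicate 4).

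Signalling and inflammatory genes gave single calls, beside 0.181% of all genes higher and 0.313% lower. Of the ERK pathway output genes 2 of 30 fell, Fosl2, an AP-1 transcription factor, at 5610 to 6108 counts with rosiglitazone and 6300 to 7052 with DMSO (log2 -0.23 ± 0.04, adjusted p 0.02, without DMSO replicate 4), and Dusp7, an ERK phosphatase (log2 -0.18 ± 0.03, adjusted p 0.0352), whose groups overlapped over 10 libraries. The list's median was 0.06. Dusp6, the ERK phosphatase most used as a readout of the pathway, averaged 2927 with rosiglitazone and 2737 with DMSO and was not called (log2 0.09 ± 0.04, adjusted p 0.364). Of 33 inflammatory and NF-kB genes 1 rose, the cytokine gene Il1a. It had 4748, 4741, 4672, 4721 and 4801 counts with rosiglitazone and 3945, 4029, 4119, 3668 and 4175 with DMSO. The rosiglitazone libraries varied by an SD of 46.9 about a mean of 4737, and the groups did not overlap (log2 0.22 ± 0.03, adjusted p 0.00884, without DMSO replicate 4). Of 30 interferon-stimulated genes 1 fell, Ifit3, at 140.6 to 165.7 counts with rosiglitazone and 199.6 to 280.4 with DMSO (log2 -0.64 ± 0.11, adjusted p 0.0265). It shares 61.8% of its 31-base words with Ifit3b, which was not called (log2 -0.54, adjusted p 0.273).

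Among stress genes, 1 of 29 of the oxidative stress and NRF2 list and 2 of 20 of the ATF4 and serine synthesis list rose, with none lower. Of all genes 0.181% rose. Hmox1, the haem oxygenase, had 3128, 2936, 3115, 2959 and 2823 counts with rosiglitazone and 2510, 2455, 2186, 2654 and 2543 with DMSO. The groups did not overlap (log2 0.31 ± 0.05, adjusted p 0.0207, without DMSO replicate 4). Asns, the asparagine synthetase, had 8168 to 8473 counts with rosiglitazone and 7291 to 8031 with DMSO (log2 0.16 ± 0.03, adjusted p 0.033, without DMSO replicate 4). Trib3, a pseudokinase induced by ATF4, had 2505 to 2741 and 2105 to 2641, overlapping through DMSO replicate 4 (log2 0.23 ± 0.04, adjusted p 0.0323). The called genes included, 25 of 29 and 19 of 20 members were positive. In DMSO replicate 4 both lists lay 0.14 log2 units above the other DMSO libraries, which is more than their median changes of 0.10 and 0.11, and with that library the medians were 0.06 and 0.07.

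The signs of the respiratory chain list depended on that library as well. None of its 29 genes was called, 26 were positive without DMSO replicate 4 and 18 with it, and the median log2 fold change was 0.07 and 0.01. In DMSO replicate 4 the list lay 0.21 log2 units above the other DMSO libraries. Its part in the result was not tested. No gene was called among 40 cell cycle genes, 27 of glycolysis and hypoxia or 17 of epithelial-mesenchymal transition, beside 0.494% of all genes. Mki67, the proliferation marker, averaged 42600 with rosiglitazone and 40410 with DMSO (log2 0.06 ± 0.03, adjusted p 0.371, without DMSO replicate 4).

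**Figure D3:**
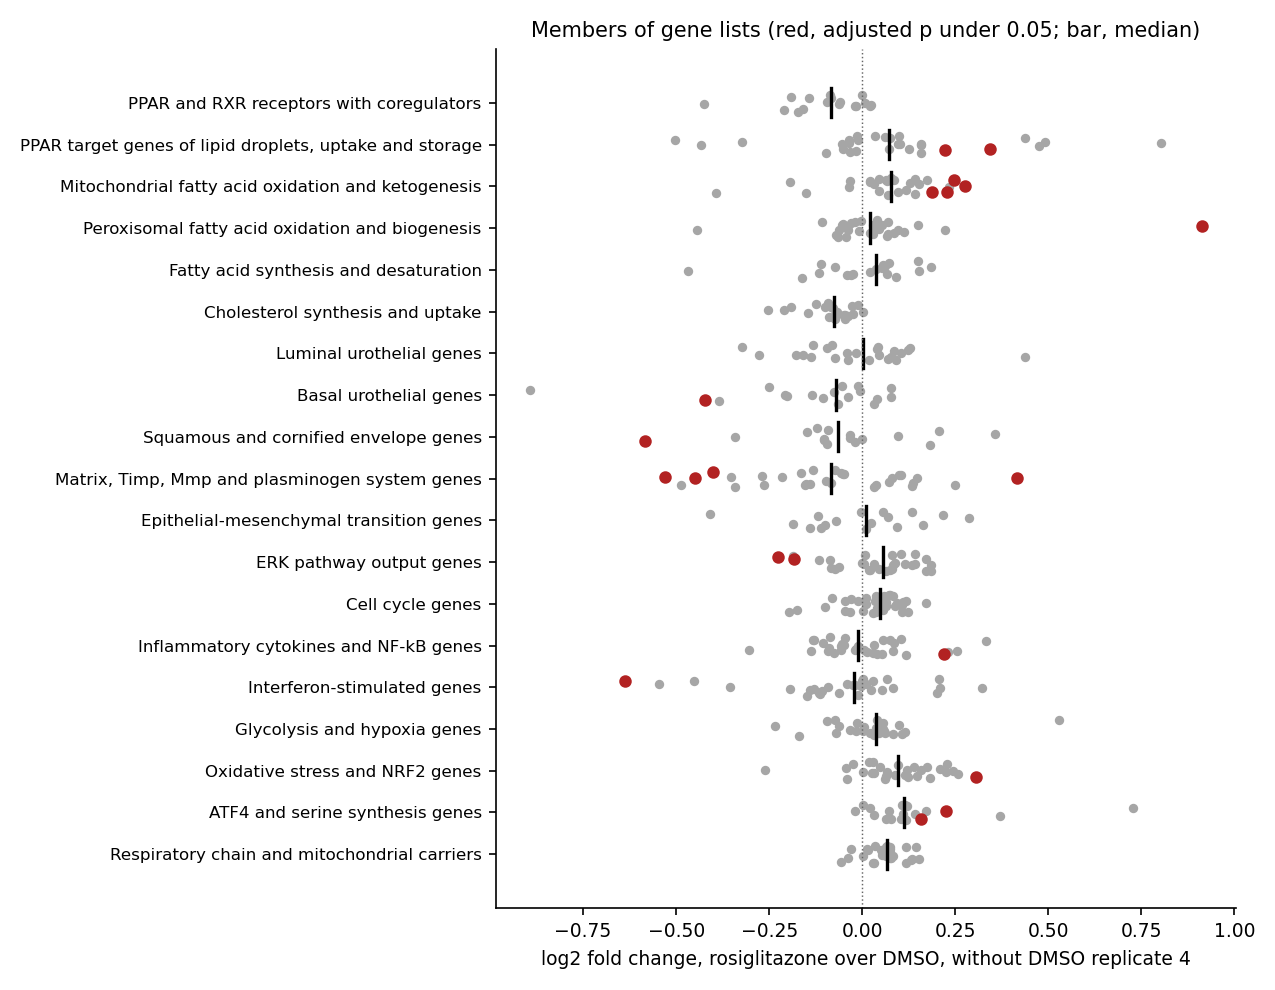
Log2 fold change of rosiglitazone over DMSO without DMSO replicate 4 (x axis) for the tested members of the larger gene lists (rows, 1 point per gene). The short lists of epithelial, leukocyte, fibroblast, endothelial and adipocyte markers are not drawn. Red points have an adjusted p under 0.05 and black bars are medians; most members lie within 0.25 of 0, and Acaa1b is the red point at 0.91.

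Some called genes were noisy, repeated or both. The 2 largest rises with a mean of at least 50, Olfr137 (an olfactory receptor gene, log2 1.26 ± 0.25, adjusted p 0.0476) and Cd3d (a T cell receptor subunit, log2 0.94 ± 0.16, adjusted p 0.023), were highest of all in DMSO replicate 4, with 242.5 and 301.2 counts. The rosiglitazone libraries had 150.7 to 222.7 and 197.9 to 253.7. Sema3d, a secreted guidance factor, had the steepest fall (log2 -1.07 ± 0.19, adjusted p 0.0265), at 28.1 to 48.0 counts with rosiglitazone and 31.3 to 105.4 with DMSO, the lowest of them replicate 4. Of the leukocyte markers, Cd3d was the 1 of 6 tested that was called, while Ptprc, the pan-leukocyte marker, averaged 7.4 and 16.4 and Cd3e 6.0 and 1.5 with rosiglitazone and DMSO. Rps12l1 (log2 0.76 ± 0.06, adjusted p 0.000203) shares all of its 31-base words with Rps12, a ribosomal protein gene that did not pass the test (log2 0.11, adjusted p 0.259), so the split of reads between these copies is uncertain. Necab3, which fell to 45.8 to 65.1 counts with rosiglitazone against 80.8 to 124.5 with DMSO, was separate in all 10 libraries (log2 -0.89 ± 0.16, adjusted p 0.0265, without DMSO replicate 4).

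Whether the same genes changed when trametinib, an inhibitor of MEK, was also present was examined with fold changes from other libraries. The comparison with DMSO did not use these libraries. The calls are not separate in this way, because their standard errors came from the spread over all 20 libraries, rosiglitazone and DMSO included. Combination libraries were set against trametinib libraries, where 1079 of 14964 genes were called (7.21%; 3.07% higher and 4.14% lower). Of the 71 genes 44 (62.0%) had the same sign in both comparisons, against 47.1% of the 14324 genes tested in both. Those with the same sign that were also called numbered 20 (28.2%), against 3.88% of all genes. Of the 35 genes whose groups did not overlap 15 were among these 20, and of the other 36 genes 5 were. DMSO replicate 4 lay off its group in those 36 genes and is part of that spread, so this split is not independent of it. The 71 genes were called in part for a low spread in shared libraries, so their share of calls is a description. Among the 15 were Acaa1b, Cpt1a and Prickle1, which were higher, and Krt6a, Timp3, Mmp3, Grem1, Dmpk, Gabrp, Fosl2, Pkp1, Aqp5, Anxa8 and Aacs, which were lower. Aqp5, an aquaporin, and Anxa8, an annexin, were named after their values were seen. Called with opposite signs were Trib3 and Cyp1b1, a cytochrome that fell with rosiglitazone alone (log2 -0.30) and was higher with the combination (log2 0.18 ± 0.04, adjusted p 0.0136).

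**Figure D4:**
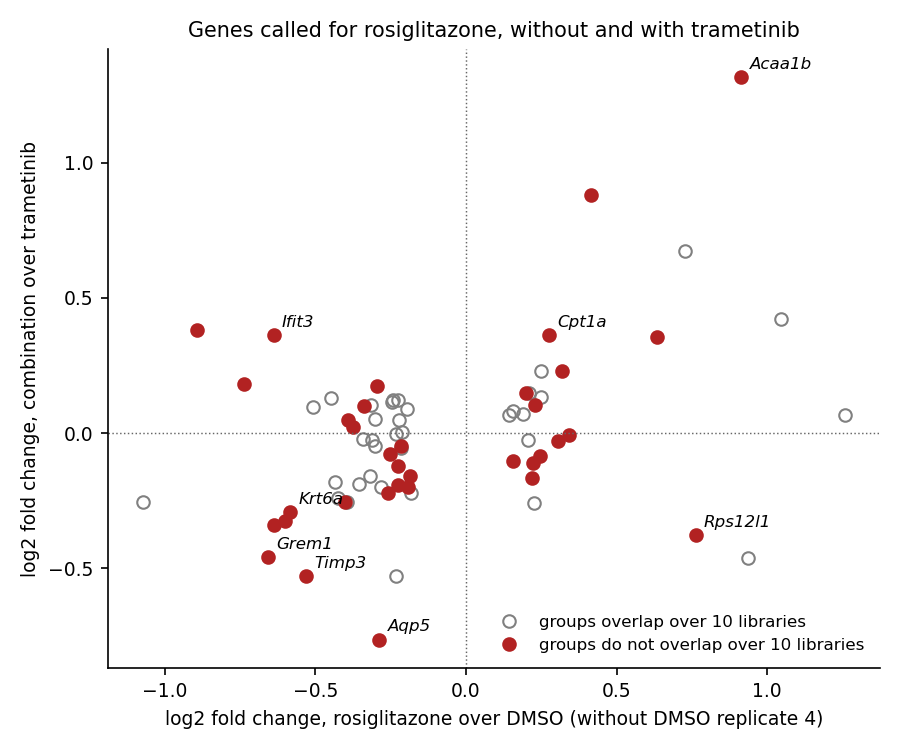
Log2 fold change of rosiglitazone over DMSO without DMSO replicate 4 (x axis) and of the combination over trametinib (y axis) for the 71 called genes; the axes share no library. Filled red points are the 35 genes whose groups did not overlap over 10 libraries, and the upper right holds Acaa1b while the lower left holds Krt6a, Timp3, Grem1 and Aqp5.

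Levels in the arms with trametinib were often far from those with rosiglitazone alone. Between rosiglitazone alone and the combination 10896 of 14964 genes were called (72.8%), 63 of the 71 among them. Acaa1b averaged 95.4 ± 12.9 counts with rosiglitazone alone, 383.9 ± 34.8 with the combination, 153.4 ± 10.4 with trametinib and 49.4 ± 5.05 with DMSO (SD, n = 5 each). On top of trametinib the drug raised it 2.49-fold (log2 1.32 ± 0.10, adjusted p 2.45e-08). Angptl4 averaged 414.6 ± 61.5, 2195 ± 61.1, 1074 ± 37.3 and 301.9 ± 30 in the same order, and on top of trametinib it rose 2.04-fold (log2 1.03 ± 0.08, adjusted p 2.45e-08). Cpt1a averaged 3901, 11720, 9123 and 3161, with a rise of 1.29-fold on top of trametinib (log2 0.36 ± 0.04, adjusted p 1.14e-06). In all of these the combination was the highest arm and DMSO the lowest.

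Krt6a and Timp3 were lowest with rosiglitazone alone. Krt6a averaged 281.4 ± 33.6 with rosiglitazone, 824.4 ± 43.2 with the combination, 1009 ± 56.4 with trametinib and 425.6 ± 38.4 with DMSO, and Timp3 770.2 ± 92.7, 2333 ± 27.4, 3373 ± 162.6 and 1092 ± 54.4. Both were lower in the combination than in trametinib (log2 -0.29 ± 0.08, adjusted p 0.0193, and -0.53 ± 0.06, adjusted p 6.46e-06). Krt14 was lower there as well, at 8836 ± 420.3 with the combination and 12470 ± 574.8 with trametinib (log2 -0.50 ± 0.07, adjusted p 3.3e-05). Plin2, Hilpda and Hmox1, which rose with rosiglitazone alone, were not called on top of trametinib (log2 -0.11, -0.005 and -0.03). Several lists held more calls on top of trametinib than for rosiglitazone alone, as did all genes (7.21% against 0.494%). Of all genes 3.07% were called higher and 4.14% lower on top of trametinib. Of 40 cell cycle genes 21 were called lower and none higher, Mki67 among them (log2 -0.19 ± 0.04, adjusted p 0.00303). Only 2 of the 40 were positive, against 31 for rosiglitazone alone without DMSO replicate 4 and 27 with it. In DMSO replicate 4 this list lay 0.13 log2 units above the other DMSO libraries. That is more than its median change of 0.05 with rosiglitazone alone. Of 20 ATF4 and serine synthesis genes 9 were called lower and none higher, with 4 of the 20 positive, against 19 for rosiglitazone alone in the same fit of 9 libraries. Of 22 cholesterol genes 9 were called lower, among them Hmgcs1 (log2 -0.25, adjusted p 0.000597), and 1 higher. Of 33 inflammatory genes 12 were called higher and 3 lower, of 32 matrix genes 9 and 7, and of 29 peroxisomal genes 5 and none. For rosiglitazone alone the inflammatory and peroxisomal lists each had 1 gene higher, and the matrix list 1 higher and 3 lower. Whether the effect of rosiglitazone itself differed between cells with and without trametinib was not tested.

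**Figure D5:**
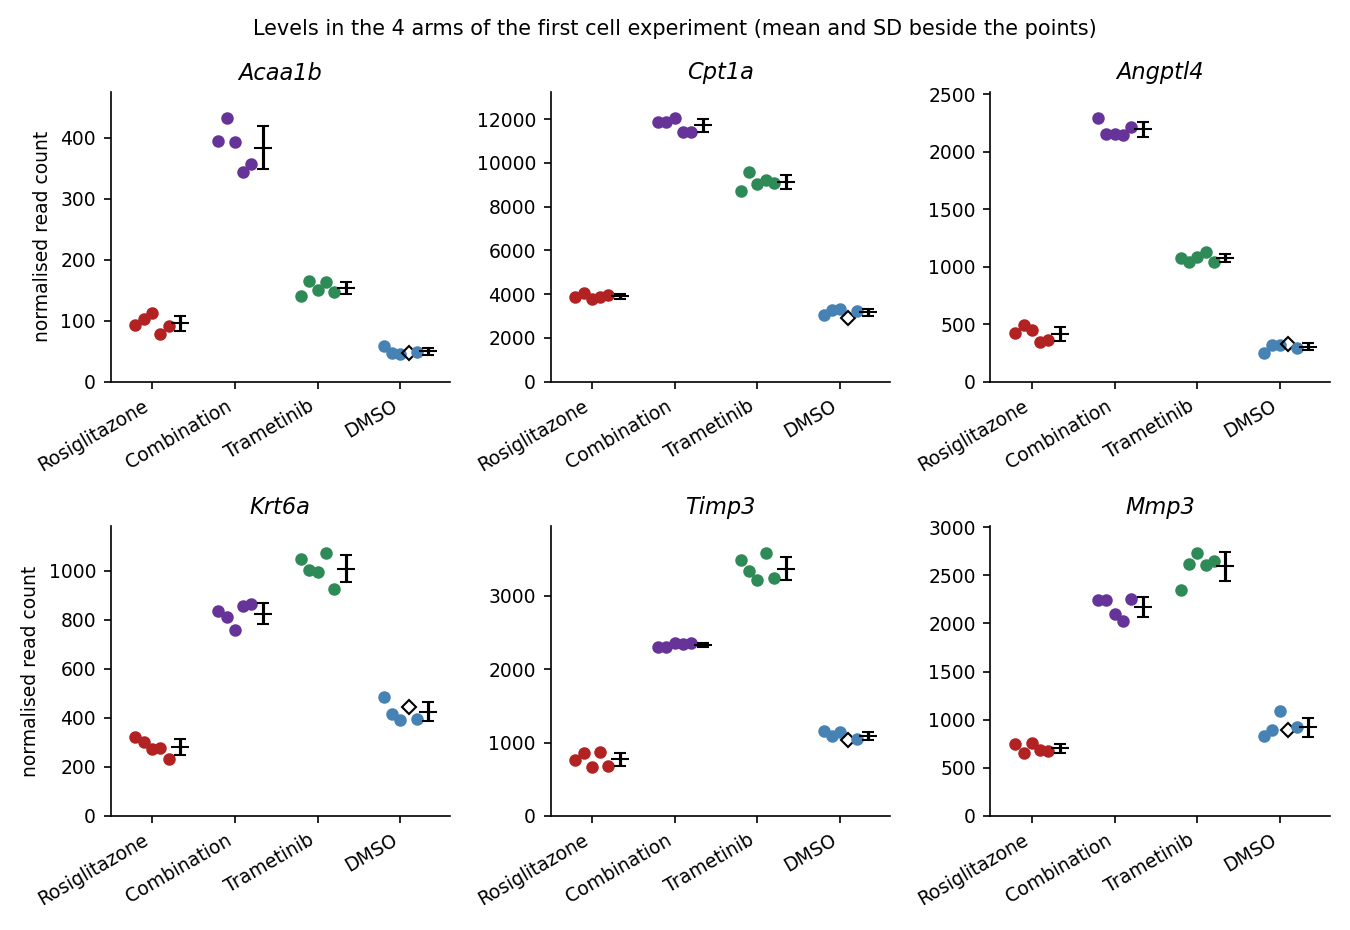
Normalised read counts (y axis, from 0) of 6 genes in the 4 arms of the cell experiment (x axis), 5 libraries each, with the mean and SD beside the points and DMSO replicate 4 as an open diamond. Acaa1b, Cpt1a and Angptl4 were highest with the combination, while Krt6a, Timp3 and Mmp3 were highest with trametinib and lowest with rosiglitazone alone.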

How the data were processed

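RNA from BBN963 cells was extracted with miRNeasy columns and sequenced as poly-A TruSeq libraries, per the labels. The submitters' processing notes name bcl2fastq 2.19, kallisto 0.44.0, DESeq2 without a version, GRCm38.p6 and mm10, which the authors used in roles not stated; annotation, settings and strand are not given in the sources used here. The deposited values are a signal that the authors made with DESeq2 from estimated read counts, per the file headers. Each gene has its own scale in each library, which hides whole reads, and depths are estimates from the lowest values. The deposited log2 fold changes and adjusted p-values are the authors' own, per the file headers, and are only quoted as such.

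Among the deposited entries 1655 stood beside the wrong gene. They were realigned through the deposited mean (1537 placed; 118 with a mean of at most 0.517 left out), and all 577 realigned genes that could be compared with the trametinib table through the shared DMSO libraries matched it within 1e-06 log2 units. For Actg1 this moved the mean to 61658.999, its deposited value, where 2.905 had stood. Of the 71 called genes, 2 had a realigned entry. The design assumed such normalised values, so limma 3.58.1 (trend, robust) in R 4.3.3 was run on log2(value + 1), which understates changes of low genes. Genes needed a value of at least 10 in 5 libraries (4 without one library) and were called at a Benjamini-Hochberg adjusted p under 0.05 over all genes tested. The method was tested on simulated data with independent noise and no outlying library, so that test does not cover the 10 libraries with DMSO replicate 4. The comparison of 10 libraries is the planned one; the repeat without DMSO replicate 4 was planned too, and genes were named from it because the planned comparison called none. Combination and trametinib tables were joined per gene through the shared DMSO libraries, without 26 entries named by dates in each, and the comparison of the combination with trametinib was added after seeing the data.

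Members, lists and the library left out were chosen with earlier results of these data known. Named were the 5 genes that mark the experiment; up to 15 called genes in each direction with the largest changes, a mean of at least 50 and no overlap over the 9 libraries, without predicted genes; the 10 lowest adjusted p; up to 4 called members per list of the majority direction and 2 of the other; and a panel of receptors, keratins, uroplakins and lipid genes. Gene coordinates are from GENCODE M21 on GRCm38, and shared 31-base words were counted between its transcripts. Alternatives changed the normalisation, pseudocount, filter, library weights, joined libraries and each library in turn. Intervals of reads were not computed, since errors are the spread between libraries. The second cell experiment was not used here, and single results for some genes are not reported here.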

Additional observations from a re-analysis of the deposited data

Results flagged for a closer look

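In a group of 5 libraries, 1 library is pointed out where its gap to the nearest other takes up most of the group's range by Dixon's criterion, which chance gives in about 1 of 20 groups. DMSO replicate 4 was so placed for the number of genes far from the other libraries (347), and as the highest library for Acaa2 (1944 counts), Esd (9992) and Etfa (5873). It was also the lowest library for Sema3d (31.3), Slc7a2 (269.4) and Plxnb1 (4400). In all 6 genes it lay toward the rosiglitazone libraries. These genes were named from the fit without it and overlapped only with it, which fixed that side in advance. DMSO replicate 1 was the highest for Acaa1b (58.2), which lies below the lowest rosiglitazone library (77.6), and DMSO replicate 5 was the lowest for Trp63 (6.21), a gene near the filter. Rosiglitazone replicate 3 was the highest of its group for Clu (5331) and Atp1b1 (2964), on the side of the DMSO libraries in both. Rosiglitazone replicate 2 was the lowest for Notch3 (269.2).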

How the results depend on the processing

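The absence of calls over all 10 libraries held with quantile normalisation, a pseudocount of 0.5 or 4, a filter at 50 and the realigned genes left out (0 each). It did not hold with no filter (5 genes), array weights (86), the 20 joined libraries (78) or both DMSO replicate 4 and rosiglitazone replicate 3 left out (66, of which 54 are among the 71); with 1 library left out it ran from 0 to 71, the 71 being without DMSO replicate 4. From the fit without that library, 71 genes became 120 with array weights and 306 in the joined libraries, 62 to 81 under the other settings, and 11 to 88 with 1 more library left out: 11 without rosiglitazone replicate 1 or DMSO replicate 3, 12 without rosiglitazone replicate 4 or DMSO replicate 2, 21 without DMSO replicate 1, 35 without rosiglitazone replicate 5 and 46 without DMSO replicate 5. The cause was not tested; each such fit has fewer libraries. Acaa1b was called under 14 of 17 such settings, Krt6a under 13, Timp3 under 16, Cpt1a under 17 and Angptl4 under 1. Genes that changed sign were never called: over 10 libraries Rxra (-0.008 to 0.077), Foxa1 (-0.037 to 0.012) and Pdk4 (-0.323 to 0.15), and without DMSO replicate 4 Ppara (-0.123 to 0.073), Rxra (-0.043 to 0.042) and Gata3 (-0.047 to 0.023). The 10896 genes between rosiglitazone and the combination ranged from 10665 to 11203. No paired analysis was possible because the labels give no replicate numbers. At these depths genes under 10 counts were not tested.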
